A study of Homo sapiens with 3 samples.

Results

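Retinoid handling was followed through 9 genes that make, carry and break down retinoic acid: RBP4, CRABP2, RDH10, RDH11, DHRS3, ALDH1A1, ALDH1A2, ALDH1A3 and CYP26A1. They were chosen by name, with earlier results of these data known. Every probe set of the deposited value table that carried 1 of these symbols and no other was taken. That gave 10 probe sets for 9 of the 18417 genes measured. The cells were HepG2, an established human liver tumour line, kept in MEM medium with no genetic change named in the labels. The control group was cells without treatment, the GO group was cells given graphene oxide (GO), sheets of carbon that carry oxygen groups, and the rGO group was cells given reduced graphene oxide (rGO), from which part of that oxygen has been removed. Both exposures ran for 24 h at the material's own EC20, the dose tied to a 20% effect in viability assays; the concentrations are not given in the labels, so the doses of both materials cannot be set side by side. Each group was 1 array, so no value has a replicate error, no test was run, and a difference between groups cannot be told apart from the variation between dishes or arrays.

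Retinol, or vitamin A, leaves the liver bound to the plasma carrier RBP4. Inside cells it is oxidised to retinal by retinol dehydrogenases such as RDH10, and DHRS3 reduces retinal back to retinol. Enzymes of the ALDH1A family then oxidise retinal to retinoic acid, CRABP2 carries the acid to nuclear receptors, and CYP26A1 breaks it down. Retinoic acid induces CYP26A1 and DHRS3 through its receptors, a textbook feedback on its own supply.

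The 250 bases before the RefSeq transcription starts (GRCh38.p14) were read for 8 of the 9 genes, in 14 windows; RDH10 had no entry. CYP26A1 is shown first because the second of its 2 windows matched the direct repeat class of retinoic acid response elements, in which a pair of receptor half-sites lie in the same orientation with 5 bases between them. The half-site was searched on both strands in 4 forms. The forms were AGGTCA (in 12.1% of windows), AGTTCA (8.8%), GGGTCA (12.1%) and GGTTCA (7.16%). The repeat was found in 0.074% of all 35116 windows, and the single half-site, which every repeat also holds 2 times, in 33.8%. The stretch lies on the plus strand at chr10:93073778-93073844, the repeat begins at position -90 from the start, and capitals mark the repeat.
CYP26A1: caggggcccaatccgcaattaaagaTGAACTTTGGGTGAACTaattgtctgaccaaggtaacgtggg

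The ALDH1A genes are shown because they encode enzymes of the same step and differed in their values. Capitals mark CCAAT, the box bound by the factor NF-Y, searched also as ATTGG and found in 32% of all windows. The box is not particular to these genes. It was also in windows of RBP4 (position -149), RDH11 (-22) and CYP26A1 (-108, in lower case in the stretch above). The second window of ALDH1A2 lacked it. ALDH1A1 is given with its whole window at chr9:72953054-72953303 on the minus strand, with the box at position -74. The box lay at position -62 in ALDH1A2 (chr15:58065744-58065798, minus strand) and at position -71 in ALDH1A3 (chr15:100879735-100879789, plus strand), and 25 bases are shown on each side of it.
ALDH1A1: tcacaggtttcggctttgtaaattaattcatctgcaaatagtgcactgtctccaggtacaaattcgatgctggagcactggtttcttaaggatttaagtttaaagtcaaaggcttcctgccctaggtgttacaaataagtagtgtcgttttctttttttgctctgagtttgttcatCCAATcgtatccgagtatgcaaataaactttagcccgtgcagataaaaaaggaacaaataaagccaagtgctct
ALDH1A2: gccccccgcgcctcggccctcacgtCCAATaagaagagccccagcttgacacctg
ALDH1A3: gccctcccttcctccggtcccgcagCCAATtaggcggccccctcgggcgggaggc
DHRS3, the gene with the highest difference in the GO array among the 9, had 3 windows, and 2 of them held 1 half-site each. The match at position -172 of its second window (chr1:12616931-12616986, minus strand) is in capitals.
DHRS3: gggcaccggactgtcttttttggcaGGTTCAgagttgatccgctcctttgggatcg
Within the windows read, CYP26A1 was the only one of the 8 genes with a direct repeat with a spacer of 5. Direct repeats with a spacer of 1 or 2 were in none of the 14 windows. Those repeats were found in only 0.0968% and 0.0313% of all windows, so their absence does not set these genes apart. Sequence outside the windows was not searched. The map of matches also shows the TATA box, searched as TATAAA on both strands and found in 10.7% of all windows. These matches describe letters in a window and say nothing of binding.

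**Figure D1:**
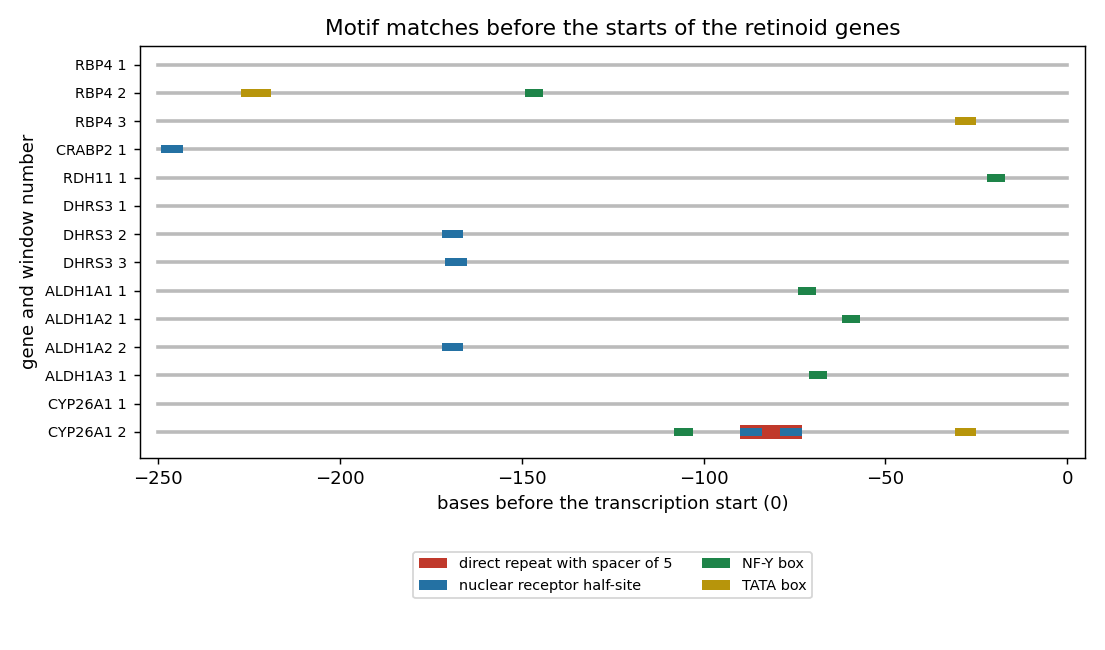
Motif matches in the 14 windows of 250 bases before the RefSeq starts of 8 retinoid genes, with the distance from the start in bases on the x axis and 1 window per line. The direct repeat stands in the second window of CYP26A1 from position -90, and the NF-Y boxes of ALDH1A1, ALDH1A2 and ALDH1A3 stand between positions -74 and -58. RBP4, RDH11 and CYP26A1 also hold an NF-Y box.

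The value table covered 33297 probe sets on a log2 scale, array medians lay between 6.63 and 6.66, and a difference of 1 is a 2-fold difference. A gene was said to be past the level filter when its 3 values averaged at least 6.66, the 40th percentile of all genes. Markers of hepatocytes were past it for all 9 measured of 10 listed, between 10.97 and 13.50 in the control. Their differences after GO ran from -0.85 (FGB) to 0.70 (TTR), with ALB at -0.014, and after rGO from -0.096 to 0.16. HNF4A was not analysed here. All 5 endothelial markers lay under the filter level. Of the leukocyte markers CD68 and LYZ were past it and PTPRC, which defines leukocytes, stood at 3.65, 3.56 and 3.76. Stellate cells, the vitamin A store of liver tissue, had 5 of 10 markers past the filter, COL1A1, PDGFRB, ACTA2, DES and RELN, with LUM and DCN under 4 on every array. The median difference of the stellate list was -0.042 after GO and -0.076 after rGO over all 10 genes, and 0.13 and -0.10 over the 5 past the filter, where PDGFRB stood at 0.33 and -0.40.

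After GO, ALDH1A1, an enzyme that makes retinoic acid from retinal, was 2.19-fold lower than in the control, and DHRS3, which turns retinal back to retinol, was 1.58-fold higher. The other 7 genes differed by 1.14-fold or less. After rGO the differences of ALDH1A1 and DHRS3 had the same signs but were small, 1.12-fold lower and 1.13-fold higher, and the farthest of the 9 was ALDH1A3, under the level filter, at 1.15-fold lower on its brighter probe set. With its probe sets averaged, ALDH1A3 stood at -0.11 after rGO and the genes farthest from 0 were CRABP2 at -0.18, DHRS3 at 0.18, CYP26A1 at -0.18 and ALDH1A1 at -0.16. In a bulk array of 1 cell line, fewer cells that express a gene and less of its RNA per cell cannot be told apart.

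ALDH1A1 had a log2 value of 11.65 on the control array, 10.52 after GO and 11.48 after rGO. The GO array was thus the low one, and the control and rGO arrays lay close together. The difference between GO and control was -1.13, the 63rd lowest of 18417 genes, and between GO and rGO it was -0.96, or 1.95-fold, the 80th lowest. Among the 500 genes nearest to ALDH1A1 in mean level the robust SD of the difference, a scaled median absolute deviation, was 0.26 for GO against control and 0.11 for rGO against control, where ALDH1A1 stood at -0.16. Quantile normalization, median centring and removal of a trend with level moved the GO difference only between -1.13 and -1.10.

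ALDH1A2, the main retinal oxidising enzyme of the embryo, stood at 5.59 in the control, 5.43 after GO and 5.50 after rGO. All 3 values were under the filter level, where background can hide signal, and the differences of -0.16 and -0.089 were within the robust SD of genes of like level, 0.18 and 0.17. ALDH1A3, the last enzyme of the same step, had the values 6.57, 6.48 and 6.36 on its brighter probe set. Its second probe set stood at 5.76, 5.80 and 5.74. The pair differed in sign after GO, at -0.092 and 0.039, and both were negative after rGO, at -0.21 and -0.022. The brighter set is matched to 1 transcript accession and the dimmer one to 7, and with both averaged the rGO difference was -0.11.

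**Figure D2:**
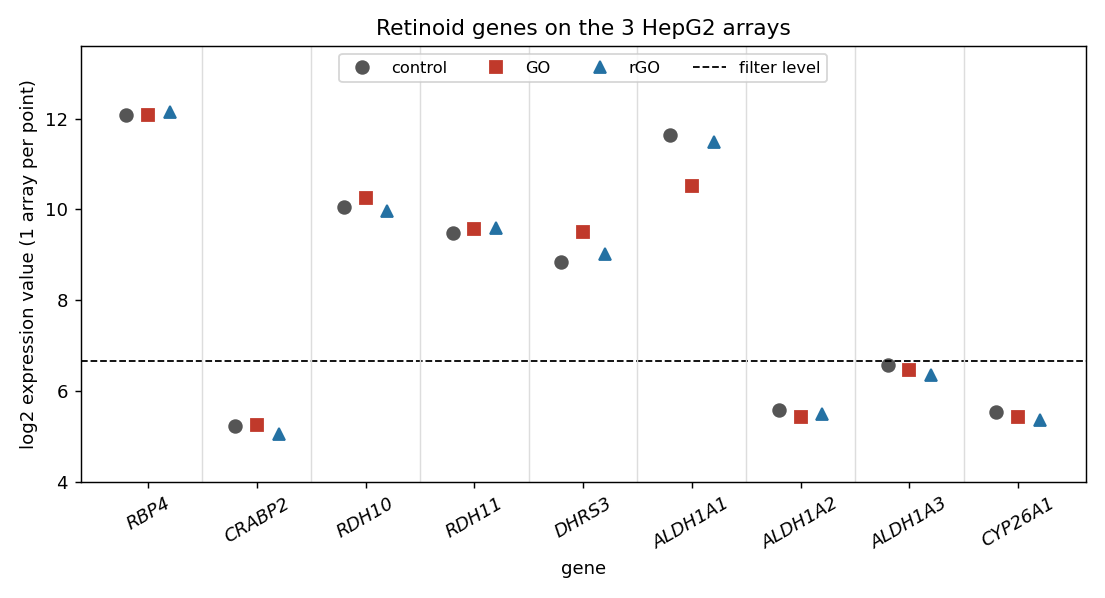
Log2 expression values of the 9 genes on the control, GO and rGO arrays, 1 array per point, with the filter level of 6.66 as a dashed line. ALDH1A1 stands at 11.65 in the control and 10.52 after GO, and DHRS3 stands highest in the GO array at 9.51, while CRABP2, ALDH1A2, ALDH1A3 and CYP26A1 lie under the line on every array.

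DHRS3 stood at 8.85 in the control, 9.51 after GO and 9.03 after rGO. The GO array was the high one, with the rGO array between it and the control. The difference after GO was 0.66, the 162nd highest of 18417 genes, beside a robust SD of 0.27 among genes of like level. After rGO it was 0.18, beside 0.12, and GO exceeded rGO by 0.48.

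RDH10, the dehydrogenase that starts the oxidation of retinol, stood at 10.06 in the control, 10.26 after GO and 9.96 after rGO. It was thus above the control after GO and below it after rGO, with differences of 0.19 and -0.11, and GO exceeded rGO by 0.30. Only the GO against control value lay within the robust SD of genes of like level, which was 0.29, against 0.10 for rGO and 0.26 for GO minus rGO. RDH11, a reductase that acts on retinal in many tissues, stood at 9.48, 9.56 and 9.60, with differences of 0.082 after GO and 0.12 after rGO. It was lowest in the control by a small margin, and GO and rGO were 0.034 apart.

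RBP4, the carrier that liver cells secrete with retinol, stood at 12.08 in the control, 12.09 after GO and 12.14 after rGO. Its differences of 0.0081 and 0.057 were within the robust SD of genes of like level, 0.25 and 0.097. After quantile normalization the GO difference was 0.090. CRABP2, the carrier of retinoic acid inside cells, stood at 5.24, 5.26 and 5.06, under the filter level on all 3 arrays, with differences of 0.023 after GO and -0.18 after rGO. CYP26A1, which clears retinoic acid, stood at 5.54, 5.42 and 5.36, also under it. The differences of CYP26A1, -0.11 after GO and -0.18 after rGO, were within 0.19 and 0.18, the robust SD of genes of like level. The gene whose window held the repeat printed above was thus under the filter level on every array, and DHRS3, the other gene under this feedback, was past the filter.

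**Figure D3:**
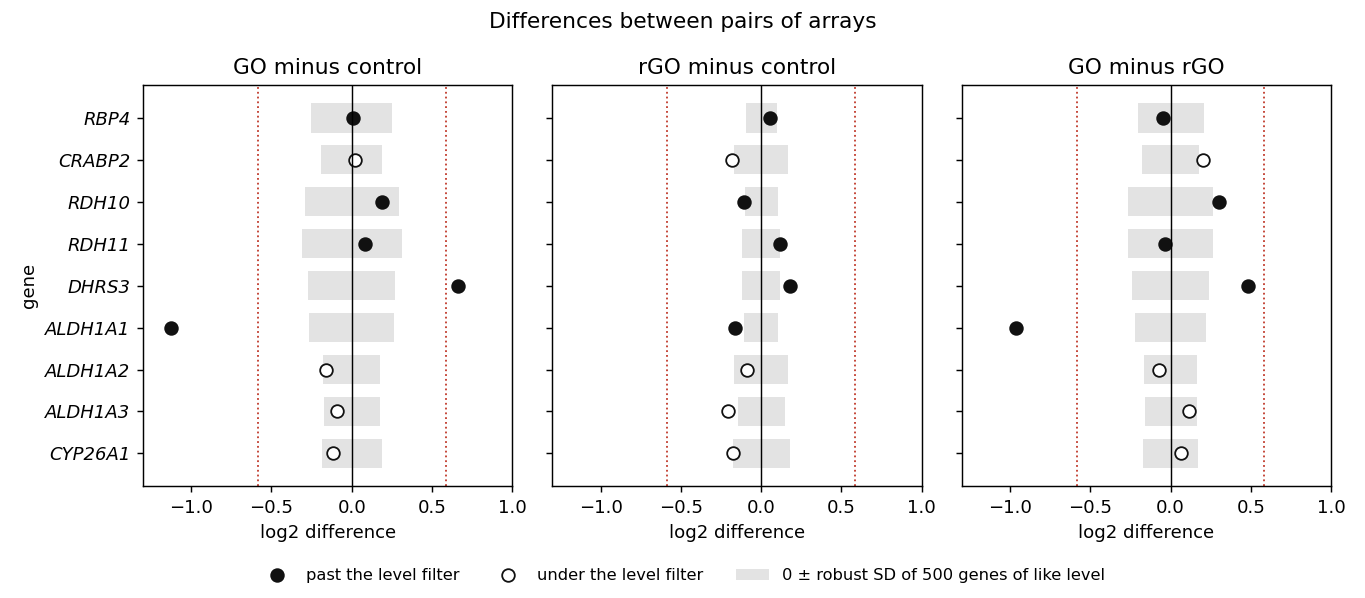
Log2 differences of the 9 genes for the comparisons of GO with control, rGO with control and GO with rGO, with filled points past the level filter, open points under it, grey bars for the robust SD of the 500 genes of like level and dotted lines at 1.5-fold. ALDH1A1 at -1.13 and DHRS3 at 0.66 lie beyond the dotted lines after GO, and no gene does after rGO.

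Counted by size, 1 of the 9 genes, DHRS3, was at least 1.5-fold higher after GO, where 1.41% of all genes were, and 1, ALDH1A1, was at least 1.5-fold lower, where 2.99% were. At 2-fold these counts were 0 (0.174% of all genes) and 1 (0.603%). After rGO 0 of 9 were 1.5-fold higher (0.076%) and 0 lower (0.282%). At 2-fold the rGO counts were 0 in both directions, with 0% and 0.0217% of all genes. Between GO and rGO, 0 were 1.5-fold higher in GO (1.3%) and 1, ALDH1A1, was lower (2.2%), and 0 reached 2-fold in either direction (0.201% and 0.358%). The median over the 9 genes was 0.0081 after GO, beside -0.0059 over all genes. Above 0 were 5 and below it 4, where 48.7% of all genes were above 0. After rGO the median was -0.11, beside -0.016, with 3 above 0 and 6 below, where 44.9% of all genes were above 0. The 6 were all 4 genes under the filter level plus ALDH1A1 and RDH10, and over the 5 genes past it the median was 0.057. In GO minus rGO the median was 0.064, beside 0.014 over all genes. GO and rGO were set against the same control array, so their differences are not independent.

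Other enzymes that act on retinol or retinal were 19 measured genes of 24 listed symbols, and 7 were above 0 and 12 below after GO, where 48.7% of all genes were above 0. The median was -0.059, with 4 of the 19 at least 1.5-fold lower beside 2.99% of all genes. All 4 were among the 8 past the level filter, where the median was -0.56 and the share over all such genes was 4.23%. The list was drawn up with earlier results of these data known, so the count cannot serve as a test. The aldo-keto reductase AKR1B10, which reduces retinal efficiently, stood at 10.43 in the control, 8.44 after GO and 10.20 after rGO, a difference of -1.99 after GO. AKR1C3 stood at 10.43, 9.40 and 10.10, with differences of -1.04 and -0.33, and near-identical copies of that family can share its signal. ADH4, a liver alcohol dehydrogenase that oxidises retinol, stood at -0.77 after GO and 0.30 after rGO. The fourth gene was ADH5, at -0.65, named after its value was seen. ADH1B, at 0.32 after rGO, lay under the filter level. For all 19 genes the median after rGO was -0.024, with 0 at least 1.5-fold different, beside 0.076% of all genes higher and 0.282% lower.

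ALDH1A1 can be set beside the other aldehyde dehydrogenases, of which all 16 listed were measured. After GO their differences ran from -0.61 to 0.53 with a median of -0.067, with 7 above 0 and 9 below, so none was as far from 0 as ALDH1A1. ALDH1L1, a folate enzyme, stood at -0.61, the mitochondrial ALDH2, which clears acetaldehyde, at -0.40 and ALDH4A1, of proline breakdown, at 0.53. ALDH1L1 alone of the 16 was at least 1.5-fold lower, and none was as much higher, where 2.99% and 1.41% of all genes were. After rGO the list ran from -0.19 to 0.16, with ALDH6A1 at -0.19 and ALDH1L2, under the filter level, at -0.17. ALDH1A1 at -0.16 was within that range.

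Carriers and uptake genes were 7 measured of 10, with a median of 0.0079 after GO and 5 above 0. TTR, the plasma partner of RBP4, stood at 11.38, 12.08 and 11.54, and was 1.62-fold higher after GO, while RBP4 itself differed by 0.0081. RBP2, a carrier inside intestinal cells, stood at -0.34. RBP3 and RLBP1, carriers of the eye under the filter level, stood at 0.33 and 0.0064 after GO and at 0.33 and -0.30 after rGO. Retinyl ester genes were 9 of 9, with a median of -0.091 after GO and -0.030 after rGO. DGAT1, an acyltransferase that can esterify retinol, stood at -0.69 after GO, PNPLA3, a lipase of retinyl esters, at -0.37 and PNPLA2 at 0.28. After rGO LIPE, under the filter level, stood at 0.24 and CES2 at -0.14. LRAT, the main retinol esterifying enzyme, was under the filter level at 5.02, 4.89 and 4.99.

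Other enzymes that can clear retinoic acid were 9 measured of 11, with a median of -0.055 after GO, 3 above 0 and 6 below, and -0.22 over the 5 past the filter. CYP3A4, under the filter level, stood at 5.93, 4.94 and 5.55, with differences of -0.99 and -0.38. Its signal can be shared with near-identical CYP3A genes. UGT2B7, a glucuronidating enzyme, stood at -0.55 and CYP2S1 at 0.31 after GO, and CYP2C8 at 0.31 after rGO from a control value of 3.66. CYP26B1 and CYP26C1, relatives of CYP26A1, stood at 0.080 and -0.035 after GO.

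Receptors and coregulators were 11 measured of 17, with a median of 0.18 after GO and 0.067 after rGO. The medians over all genes were -0.0059 and -0.016. After GO 7 were above 0 and 3 below, where 48.7% of all genes were above 0. After rGO 7 were above and 4 below, where 44.9% were above. In either comparison 0 were past 1.5-fold. The shares of all genes past that size were 1.41% higher and 2.99% lower after GO, and 0.076% and 0.282% after rGO. RXRA, the partner of the retinoic acid receptors that is most typical of liver, stood at 9.15, 9.12 and 9.08, and RXRB at 8.66, 8.85 and 8.73. RARB, RARG and RXRG were under the filter level, with differences of 0.27, -0.20 and 0 after GO and 0.15, -0.44 and 0.19 after rGO. RARA was not analysed here. NRIP1, a corepressor that retinoic acid induces, stood at -0.44 after GO and the coactivator NCOA2 at 0.32.

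Genes that retinoic acid is known to induce were 20 measured genes of 25 listed symbols. Their median was 0.011 after GO, beside -0.0059 over all genes. Above 0 were 11 and below it 9, where 48.7% of all genes were above 0. After rGO the median was -0.0100, beside -0.016 over all genes, with 8 above and 12 below, where 44.9% of all genes were above 0. At least 1.5-fold higher after GO were BHLHE40, a repressor of transcription, at 1.53, and TGM2, a transglutaminase, at 0.70, where 1.41% of all genes were. None was as much lower, where 2.99% of all genes were, and the lowest was RARRES2, the gene of chemerin, at -0.46. After rGO CDX1 stood at 0.25 and BHLHE40 at 0.22. NRIP1, RARB, STRA6 and LRAT are in this list and in 1 of the others.

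**Figure D4:**
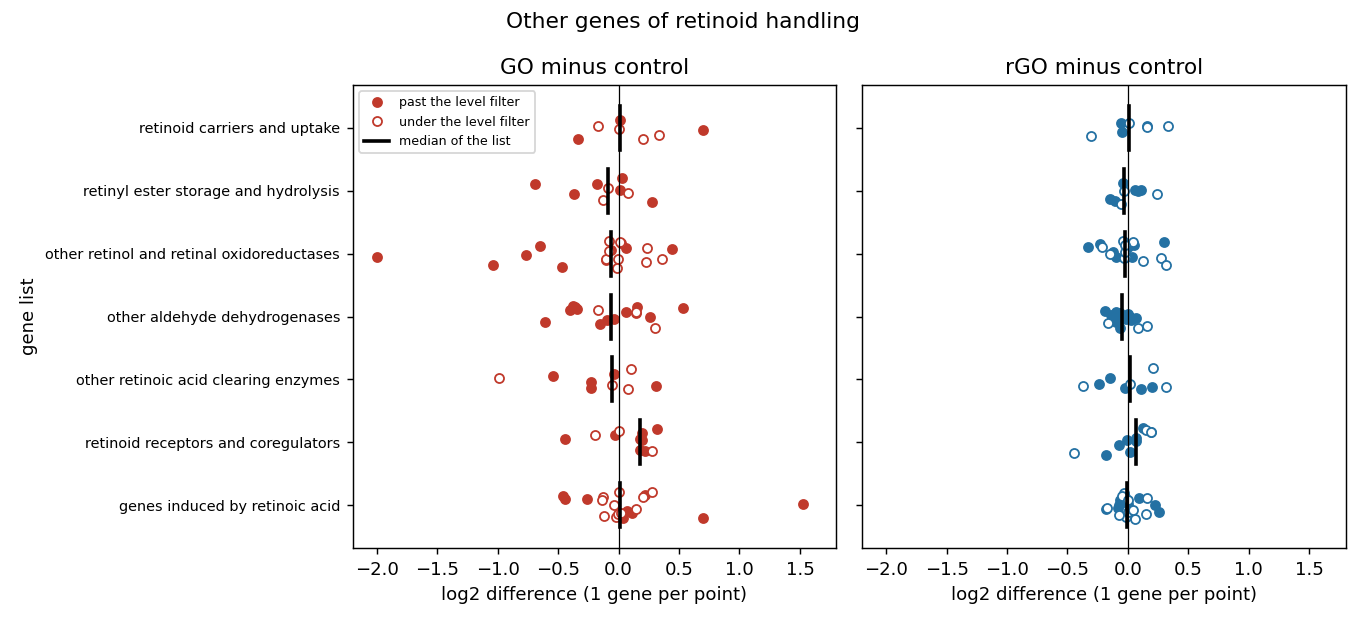
Log2 differences of the measured genes of 7 lists of retinoid handling, GO minus control on the left and rGO minus control on the right, with 1 gene per point, open points under the level filter and a black line at each list's median. The retinal reductase AKR1B10 at -1.99 and BHLHE40 at 1.53 are the outermost points after GO, and the points run from -0.44 to 0.33 after rGO.

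By the distance between pairs of differences (GO minus control and rGO minus control, over 3 arrays), the genes past the filter most like ALDH1A1 were POLB, a repair polymerase, LSM5, of an RNA-binding ring, and RSL24D1, of ribosome assembly. POLB stood at -1.14 and -0.19, a distance of 0.023. Within a distance of 0.1 there were 16 genes. The genes most like DHRS3 were HEG1, BCAR1 and NDST1, at distances of 0.018 to 0.022, with 58 genes within 0.1. HEG1 stood at 0.66 and 0.16.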

How the data were processed

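HepG2 RNA from 3 groups, 1 array each, was labelled with biotin after amplification. The deposited values are log2 values per probe set from the series' value table, and their medians are near-equal over arrays. RMA and MAS5 appear in the submitters' processing notes with no stated role. The authors' build, annotation and other scaling: not given in the sources used here. Probe sets were named through the platform's annotation, which can be old: 19460 had 1 symbol, 1754 several and 12083 none that was listed. RefSeq matched 19429 by Entrez ID and updated 0 symbols. A gene took its probe set of highest mean.

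Differences of log2 values were computed between arrays and counted at 1.5-fold and 2-fold, with no test. A simulation with planted changes checked the code of the 2-fold count only. The 1.5-fold count was not tried on it, and it says nothing of the error between arrays. Beside the 9 genes, the text names from each list the 3 genes with the largest difference after GO, the 2 after rGO and the retinoid receptors; other named genes were picked after their values were seen. The genes and lists were chosen with earlier results of these data known. Promoter sequences are RefSeq's. As alternatives, arrays were median centred or quantile normalized, a loess trend (span 0.3) was removed, probe sets were averaged, or the level filter was applied. Python 3.11.15, numpy 2.4.6, pandas 2.3.3, statsmodels 0.14.6 and matplotlib 3.10.9 were used. The number of arrays limits the precision.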

Additional observations from a re-analysis of the deposited data

How the results depend on the processing

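All counts of the 9 genes past 1.5-fold and 2-fold were equal to the main counts in each alternative run. The runs were quantile normalization, median centring, loess, averaged probe sets and only the 5 genes past the level filter. Averaging alters only ALDH1A3, and the genes counted, ALDH1A1 and DHRS3, are both past the filter. The averaged and the filtered run thus could not change the counts. With only those 5 genes the median was 0.057 after rGO, against -0.11 over all 9, and -0.034 in GO minus rGO, against 0.064; fewer genes enter it by construction. A value was said to move when it shifted by more than the robust SD between probe sets of the same gene (0.080 for GO minus control, 0.054 for rGO minus control and 0.067 for GO minus rGO, over 365 genes). By that measure RBP4 moved under quantile normalization, to 0.090 in GO minus control and 0.027 in GO minus rGO, and the cause was not tested. ALDH1A3 moved with averaged probe sets, to -0.11 after rGO, by construction the average of its probe sets at -0.21 and -0.022. Pathway list medians that moved with the level filter were those of the retinol and retinal enzymes (-0.56 after GO, -0.50 in GO minus rGO), the clearing enzymes (-0.22 after GO) and the carriers (-0.051 after rGO); of the marker lists, that of stellate cells moved after GO (0.13) and that of leukocytes, over 2 genes, in every comparison (0.29 after GO, 0.029 after rGO, 0.26 in GO minus rGO). Without the dim genes 0.914% of genes were 2-fold lower after GO, and 0.0271% and 0.127% were 1.5-fold higher and lower after rGO. No paired analysis was possible because each group held 1 array. Signal near background limits CRABP2, ALDH1A2, ALDH1A3 and CYP26A1.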

Other observations

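The 3 nearest measured genes on each side of the 9 genes in RefSeq order were 51 different genes, looked at after the values had been seen. After GO 2 were at least 1.5-fold lower, RPL7 beside RDH10 at -0.83 and ANXA1 beside ALDH1A1 at -0.64, and 1 was as much higher, AQP9 beside ALDH1A2 at 0.64, where 2.99% and 1.41% of all genes were. ANXA1, which encodes annexin A1, and AQP9, a glycerol channel of liver cells, were under the level filter. After rGO 0 of the 51 reached that size, beside 0.076% of all genes higher and 0.282% lower. CYP26C1, the measured gene next to CYP26A1, stood at -0.035 after GO and -0.023 after rGO.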
